A study of Bos taurus with 15 samples.

Results

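Leukocytes of the cecum were compared between newborn (NB) and adult (AD) Holstein cattle. The members were barcodes, each standing for 1 captured cell, with 500 to 4000 detected genes and under 50000 unique molecular identifiers (UMIs), at least 1 UMI of PTPRC and none of EPCAM. PTPRC encodes CD45, a phosphatase on the surface of nearly all white blood cells, and EPCAM encodes an adhesion molecule of epithelial cells. The rule found 9921 members, 2402 in the NB library and 7519 in the AD library, of 53788 barcodes that met it across the 15 libraries of the series and of 172405 barcodes in all.

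The series profiled digestive tissues of cattle by droplet single-cell RNA sequencing (10x Genomics 3' chemistry), and each cecum stage is represented by 1 library. The AD cecum came from 1 lactating cow, which also gave the AD duodenum, jejunum and colon, and the NB tissues came from 3 calves, with the calf of the cecum library not given. The NB tissue was treated with EDTA and trypsin before the lamina propria enzyme kit, whereas the AD tissue received the lamina propria kit alone and then red cell lysis. Stage, animal, dissociation and library therefore cannot be told apart, no test between stages was possible, and every interval given is an exact 95% interval that covers counting error only. Both groups were labelled as breed Holstein dairy cows and carried no treatment label.

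The cecum is the blind pouch at the entrance of the large intestine, where microbes ferment fibre that escaped the forestomachs. Its mucosa houses T cells, which recognise antigen through a receptor carried by the CD3 chains and can kill target cells with perforin and granzymes, together with macrophages, which clear debris and make the complement protein C1q, and dendritic cells, which carry antigen to T cells. Innate lymphoid cells resemble helper T cells in the cytokines they release but lack the T cell receptor. At birth the gut has met few microbes, and its lymphocyte compartment fills with age.

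The libraries held 83536439 UMIs (NB) and 50550900 UMIs (AD), and the median depth of a member was 11461 UMIs in NB and 3704 in AD, so shares of barcodes with a UMI were also computed after thinning every barcode to 1000 UMIs. Summed over members, depth was similar, at 27120217 and 32458346 UMIs. The median mitochondrial share was 3.86% in NB and 7.12% in AD members. The libraries shared 9 member barcodes.

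Members made up 37.6% (36.4 to 38.8) of the 6395 NB barcodes within the gene and UMI limits and 77.9% (77.1 to 78.7) of the 9651 AD barcodes. The members were selected on their measured PTPRC and EPCAM counts, so these shares describe the selection and neither gene is reported as a result. Members just inside the rule, with exactly 1 PTPRC UMI, were 29.7% of NB and 20.5% of AD members, and 201 NB and 462 AD barcodes with PTPRC fell outside it because they held EPCAM. PTPRC did not mark every leukocyte type equally well. Among all kept EPCAM-negative barcodes that passed a single marker gate, PTPRC was detected in 83.0% (NB) and 90.7% (AD) of the T gate, in 60.7% and 38.3% of the macrophage gate, in 22.9% and 22.9% of the plasma cell gate, and in 30.2% and 7.14% of the mast cell gate (1 of 14 AD barcodes). The rule therefore left out a larger part of the macrophage, plasma cell and mast cell gates than of the T gate. Whether RNA from other cells filled part of these gates was not tested. Barcodes without PTPRC, used below for comparison, thus still include barcodes of all these gates and are not free of leukocytes.

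The 2 stages held different leukocytes. Members were sorted by 7 gates, each requiring at least 2 UMIs summed over a few defining genes, and a member was placed in a gate only if it passed no other. The T gate (CD3D, CD3E and CD3G) took 80.4% (79.5 to 81.3) of AD members, 6048 barcodes, and 18.3% (16.8 to 19.9) of NB members, 439 barcodes. The macrophage gate (C1QA, C1QB and C1QC) took 21.6% (20.0 to 23.3) of NB members and 0.918% (0.715 to 1.16) of AD members. The NB cecum was thus a mixture in which the largest single gate held 21.6%, whereas T cell markers ran through most AD members.

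The dendritic gate (FLT3, CLEC9A and XCR1, genes of cells that cross-present antigen) took 17.9% of NB members, 429 barcodes, and 0.186% of AD members, 14 barcodes. The neutrophil gate held 2.62% of NB and 0.106% of AD members, and the mast cell gate 1.58% and 0.0133%. The B cell gate held 0.458% of NB and 1.08% of AD members, a count of 11 against 81 barcodes, while 6.66% of NB and 8.59% of AD members passed it when other gates were allowed too. A further 19.8% of NB and 16.4% of AD members passed several gates, mainly T with plasma in AD (706 barcodes), and JCHAIN, the immunoglobulin joining chain, also had a UMI in 41.6% of AD barcodes with EPCAM and without PTPRC. No gate was passed by 16.3% of NB and 0.705% of AD members.

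The T, macrophage and dendritic shares of members kept the order of the stages when the gates were applied to thinned counts. The other shares were not recomputed so. The members were still those chosen at full depth, and a PTPRC UMI remained after thinning in 25.2% of NB and 57.7% of AD members. After thinning to 1000 UMIs, the T gate held 7.55% of NB and 75.7% of AD members, and the macrophage gate 22.4% and 1.26%. The dendritic gate, which rests on genes of low abundance, held 1.58% and 0.0266%.

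**Figure D1:**
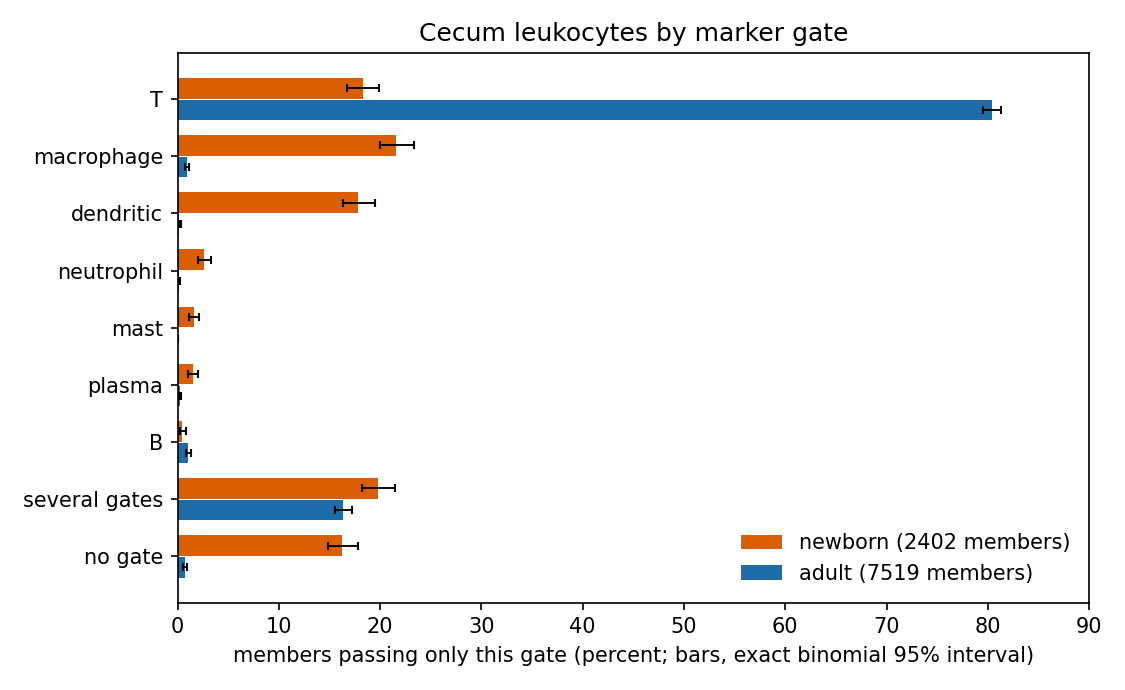
Share of members that passed only 1 marker gate, several gates or none, in percent of the members of each library, with exact binomial 95% intervals. The T gate holds 80.4% of AD members, and NB members spread over the T, macrophage and dendritic gates at 17.9% to 21.6% each.

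Levels were then compared as UMIs summed over the members of each library per 1000000 UMIs (CPM). A gene is called higher in a stage when its CPM + 5 was at least 2-fold higher there and the 2 counting intervals did not overlap, and the log2 ratios below are of CPM + 5, NB over AD. Of 7762 genes with at least 10 CPM in either stage, 1243 (16.0%) were higher in NB and 938 (12.1%) in AD, 28.1% in all, with a median log2 ratio of -0.13 over all genes tested. The balance turned to 729 in NB and 842 in AD when the T, macrophage and B gates were given equal weight in each library. No counting interval entered that setting, where the fold alone decided. In the main sum the fold alone also gave 1243 and 938. These calls describe 2 libraries, and because the members were chosen knowing that the stages differ, the counts for gene groups are to be read against those percentages. In sums over a mixed population, fewer cells of a type and less RNA per cell cannot be told apart.

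All 20 tested genes of the T cell list were higher in AD, none in NB, with a median log2 ratio of -2.84. CD3E was 147 CPM (142 to 152) in NB and 2401 CPM (2384 to 2418) in AD. CD247, the signalling zeta chain of the receptor, was 46.2 CPM (43.7 to 48.9) and 1345 CPM (1333 to 1358). TRAT1, an adaptor that stabilises the receptor complex, was 8.11 and 344 CPM, and CD96, an adhesion receptor of T and natural killer cells, was 28.7 and 858 CPM. The co-receptor chains followed, with CD8A at 9.96 and 216 CPM, CD8B at 8.30 and 186 CPM, and CD4 at 24.6 and 68.7 CPM. Each of these genes therefore had the higher level in the single AD library, with the narrowest gap for CD4 (log2 ratio -1.32). CD4 was not read in T cells alone, with a UMI also in 17.0% of NB and 56.5% of AD macrophage-gate members.

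The largest difference toward AD was in CCL5, a chemokine stored and released by cytotoxic lymphocytes. CCL5 was 108 CPM (105 to 112) in NB and 8707 CPM (8675 to 8739) in AD, a log2 ratio of -6.26, and it had a UMI in 19.7% of NB and 83.2% of AD members. Cytotoxic effector genes were higher in AD for 14 of 18 tested and in NB for 1, with a median of -1.61. Among them were GZMA, a granzyme protease (13.5 CPM in NB and 374 CPM in AD), PRF1, the pore-forming perforin (5.199 and 188 CPM), and GNLY, a membrane-lytic granule protein (58.3 and 915 CPM). The gene listed as gzmA, a second granzyme identifier, was 3.43 and 142 CPM, and ADGRG1, an adhesion receptor of cytotoxic lymphocytes, was 5.31 and 166 CPM. The intervals of the stages were apart for each of these genes.

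KLRJ1, a lectin-like receptor gene, was 9.22 CPM (8.11 to 10.4) in NB and 531 CPM (523 to 539) in AD, and its AD level came from 906 barcodes, 12.1% of members. CD7, a marker of T and natural killer cells, was 24.1 and 453 CPM, and GPR174, a lysophosphatidylserine receptor of lymphocytes, was 3.06 and 113 CPM. All 7 GIMAP identifiers, which encode small GTPases that support lymphocyte survival, were higher in AD, from GIMAP8 at 30.9 and 262 CPM to the GIMAP7 identifier with the highest AD level at 68.4 and 954 CPM. The symbol GIMAP7 belongs to 4 identifiers, and whether reads are split between them was not tested. Also in the top 5 differences toward AD was 5_8S_rRNA, a ribosomal RNA gene, at 107 and 2991 CPM, and 2 identifiers without a symbol, ENSBTAG00000055197 (112 and 2232 CPM) and ENSBTAG00000055254 (10.0 and 254 CPM), were higher in AD.

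Most macrophage, dendritic and class II genes were higher in NB. Macrophage genes were higher in NB for 24 of 26 tested and in AD for none (median 2.40), among them CSF1R, the growth factor receptor of macrophages, at 208 and 18.3 CPM. Class II antigen presentation genes were higher in NB for 7 of 9 (median 2.35). CD74, the class II invariant chain, was 13004 CPM (12961 to 13047) in NB and 1900.4 CPM (1885 to 1916) in AD, and BOLA-DRA, a class II chain, was 11788 and 1011 CPM. With the T, macrophage and B gates equally weighted, which leaves out the dendritic gate, CSF1R, CD74 and BOLA-DRA turned to log2 ratios of -0.46, -1.18 and -0.54. CST3, a secreted protease inhibitor abundant in dendritic cells, was 14510.5 CPM (14465 to 14556) and 521 CPM (513 to 529). Of the dendritic list 7 of 10 were higher in NB and 3 in AD, and of the neutrophil and mast cell lists 5 of 5 and 3 of 4 were higher in NB and none in AD. HMOX1, the heme-degrading enzyme, was 319 and 7.12 CPM, and PLA2G2D4, a secreted phospholipase gene, was 253 and 5.30 CPM.

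Inflammatory mediators and stress proteins were prominent among the largest differences toward NB. Inflammatory cytokine and chemokine genes were higher in NB for 18 of 27 tested and in AD for 3 (median 2.16). IL1B, the gene of interleukin 1 beta, was 538 CPM (529 to 546) in NB and 5.51 CPM (4.74 to 6.38) in AD. CXCL8, a neutrophil attractant, was 575 CPM (566 to 584) and 7.46 CPM (6.55 to 8.46), and the related chemokines GRO1 and CXCL2 were 752 and 13.8 CPM and 228 and 0.893 CPM. In AD members a large part of the few UMIs of IL1B, CXCL8 and GRO1 came from 1 barcode each, at 21.8%, 32.2% and 61.5%. CD83, an activation marker of dendritic cells and lymphocytes, was 1157 and 23.4 CPM. The 2 leading genes were ZFAND2A (1809 and 7.70 CPM) and BAG3 (1826 and 7.83 CPM), both induced by protein damage, each with a log2 ratio of 7.16.

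The other leading NB genes were DNAJA4, a heat shock co-chaperone (521 and 11.2 CPM), IER5L, an immediate early gene relative (451 and 5.39 CPM), CDKN1A, the cell cycle inhibitor p21 (459.9 and 8.60 CPM), TUBB4A, a tubulin (229 and 3.51 CPM), and PVR, a ligand of CD96 and other lymphocyte receptors (191 and 3.02 CPM). Of the identifiers without a symbol, ENSBTAG00000034366 (908 and 24.6 CPM) and ENSBTAG00000037605 (4811 and 349 CPM) were higher in NB.

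Sums over the separate gates showed where these genes were read. CST3 reached 34266 CPM in the NB dendritic gate against 2827 CPM in the NB macrophage gate and 476 CPM in the NB T gate. PLA2G2D4 was 954 CPM in NB macrophage-gate members and at most 7.42 CPM in every other single gate or in NB members of no gate. CXCL8 was 1597 CPM in the NB neutrophil gate and 1566 CPM in the macrophage gate, and IL1B was 2799 CPM in the neutrophil gate, 619.8 CPM in the dendritic gate and 419.5 CPM in the macrophage gate. BAG3 and ZFAND2A had no such pattern, with BAG3 between 628 and 2322 CPM across the NB gates.

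The dendritic gate of NB members also carried BATF3, a factor needed for cross-presenting dendritic cells, at 859 CPM, and IRF8, its partner, at 225 CPM. XCR1, a gate gene, was only 2.89 CPM there, so the gate rests on CLEC9A (238 CPM) and FLT3 (116 CPM). C1QA was 9.15 CPM in these members, kept low because they had to fail the macrophage gate. BOLA-DRA was 17186 CPM there, beside 15964 CPM in the NB macrophage gate and 192 CPM in the NB T gate.

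The symbol GZMB belongs to 2 identifiers that went in opposite directions. ENSBTAG00000010057 was 32.9 CPM in NB and 739 CPM in AD members and lay in the AD T gate (894 CPM). ENSBTAG00000053015 was 252 CPM in NB and 69.3 CPM in AD members. In NB it was 23968 CPM in the 38 mast-gate members and 56.0 CPM in the T gate. The mast gate also held GATA2, a transcription factor of mast cells, at 1117 CPM, KIT, the stem cell factor receptor, at 738 CPM, and GNLY at 1673 CPM. Reads may be split between the 2 identifiers where their sequences are alike.

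The neutrophil gate was defined by CSF3R, CXCR2, S100A8 and S100A9. High S100A8 (2400.5 CPM) and S100A9 (4636 CPM) in its 63 NB members therefore follow from the gate. These are calgranulin genes, which encode small calcium-binding proteins of neutrophils and monocytes. S100A12, a calgranulin gene outside the gate definition, was 5184 CPM in these members. GRO1 was 3337 CPM there, against 1963 CPM in the NB macrophage gate. CXCR2, the chemokine receptor of mature neutrophils and a gate gene, had no UMI in these members. CXCR2 was 0.0374 CPM in NB barcodes without PTPRC, and how well this library detects it was not tested. Whether the gate separates neutrophils from monocytes was not tested.

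The 391 NB members that passed no gate held lymphocyte and myeloid genes in their sum. They held IL7R, the interleukin 7 receptor, at 156 CPM and the type 3 cytokine genes IL17F (162 CPM) and IL22 (104 CPM). IL7R was not read in lymphocytes alone. After thinning it had a UMI in 17.5% of NB macrophage-gate and 17.1% of NB T-gate members, beside 12.1% of these. KIT was 115 CPM and LTB, which encodes lymphotoxin beta, was 347 CPM. CD3E was 6.19 CPM in these members, against 885 CPM in the NB T gate, and the gate itself kept CD3 low. They also held CST3 (7754 CPM), CD74 (7588 CPM) and IL1B (928 CPM), so the sum is not that of lymphocytes alone.

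**Figure D2:**
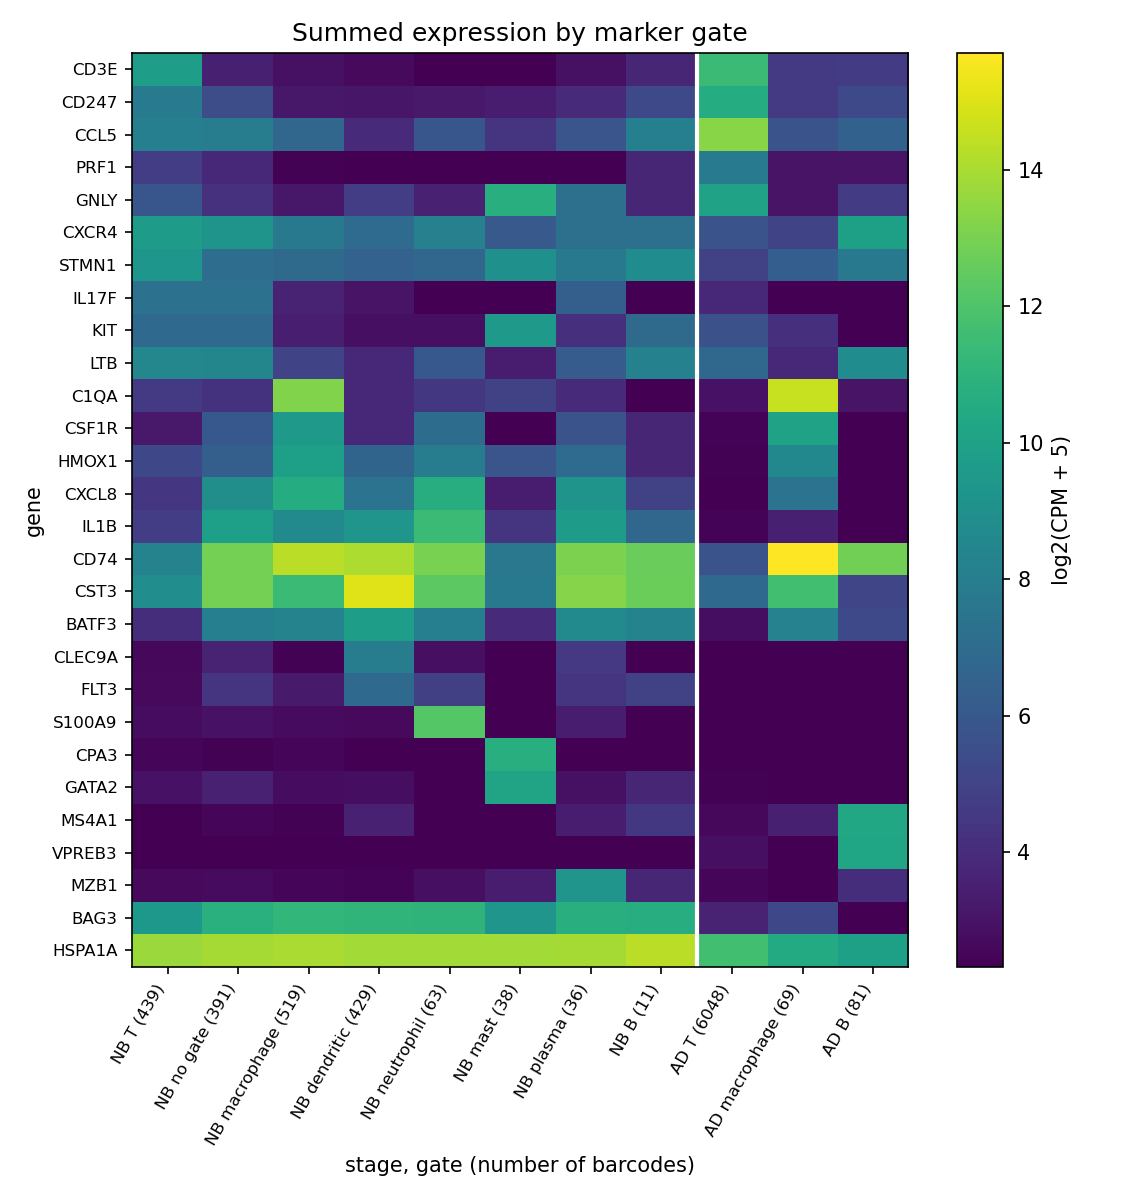
Summed expression, as log2(CPM + 5), of genes (rows) in members of each single marker gate or of no gate (columns, with the number of barcodes), for NB (left of the white line) and AD. CST3 peaks in the NB dendritic gate, IL17F appears in the NB T gate and in NB members of no gate, and BAG3 and HSPA1A are high in every NB column.

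T-gate members were also compared alone, so that the share of members in the T gate no longer enters. Over 439 NB and 6048 AD barcodes, of 7415 genes tested 1000 (13.5%) were higher in NB and 642 (8.66%) in AD, 22.1% in all. The gate required at least 2 CD3 UMIs whatever the depth, which was greater in NB. After thinning, CD3E had a UMI in 63.3% of NB and 91.4% of AD T-gate members. How far other cells entered the NB gate was not tested. Without the CD3 genes, 12 of 17 tested genes of the T cell list were higher in AD and 0 in NB (median -1.50). CD247 was 221 CPM in NB and 1558 CPM in AD, and CD6, a surface receptor of T cells, was 46.8 and 198 CPM. KIT, of the mast cell list, was 112 and 44.98 CPM, higher in NB, with a UMI in 11.6% and 3.38% of T-gate members after thinning. Cytotoxic effector genes were higher in AD for 9 of 18 and in NB for 1 (median -1.06, beside a median of -0.04 over all genes tested). CCL5 was 268 CPM (251 to 285) in NB and 10193 CPM (10152 to 10234) in AD. GNLY was 54.6 CPM (47.1 to 62.9) and 1049 CPM (1036 to 1062), and ENSBTAG00000010057 (GZMB) was 82.7 and 894 CPM.

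Fewer NB than AD T-gate members had UMIs of the leading cytotoxic genes. After thinning, CCL5 had a UMI in 13.7% of NB and 83.1% of AD T-gate members, beside 0.853% and 9.20% of the barcodes with EPCAM and without PTPRC, called epithelial-marked from here on, which should lack it. GNLY had a UMI in 2.51% and 28.0%, beside 0.683% and 3.48% of epithelial-marked barcodes, and PRF1 in 1.82% and 17.8%, beside 0% and 1.74%. The median depth before thinning was 7190 and 3574 UMIs in T-gate members and 7103 and 9646 UMIs in epithelial-marked barcodes. Without thinning the CCL5 shares were 30.3% and 86.9%, at a background of 2.70% and 36.01%. Some effector genes did not pass the rule, among them IFNG, the gene of interferon gamma, at 56.0 CPM in NB and 77.9 CPM in AD, and CTSW, a protease of cytotoxic lymphocytes, at 366 and 277 CPM.

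Other leading AD genes of the T gate were CCL3, a chemokine (17.5 and 271 CPM), GPR15, a receptor that directs T cells to the large intestine (3.16 and 86.6 CPM), AOAH, an enzyme that inactivates bacterial lipopolysaccharide (8.04 and 109.7 CPM), KLRJ1 (34.8 and 412 CPM), gzmA (15.2 and 169.9 CPM), TRAT1 (42.8 and 395 CPM) and U3, a small nucleolar RNA (13.8 and 155 CPM). The NB level of KLRJ1 came from 3 barcodes, 1 of which held 53.7% of its UMIs.

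Of the co-receptors, CD8 chains were higher in AD and CD4 was not. CD4 was 99.1 CPM (88.9 to 110.1) in NB and 80.8 CPM (77.3 to 84.6) in AD T-gate members and did not pass the rule, while CD8A was 56.9 CPM (49.2 to 65.4) and 260.5 CPM (254 to 267) and CD8B was 40.8 and 229 CPM, both higher in AD. A UMI of CD8A or CD8B without CD4 was found in 27.1% of NB and 52.0% of AD T-gate members, and after thinning in 11.6% and 30.1%. A UMI of CD4 without CD8A or CD8B was found in 24.6% and 13.7%, and after thinning in 8.66% and 7.08%. CD8A had a UMI in 0% of NB and 0.746% of AD epithelial-marked barcodes after thinning, and CD4 in 0.171% and 0.249%. None of the 3 genes had a UMI in 79.7% of NB and 62.6% of AD T-gate members after thinning, so the shares are not subset sizes.

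Homing genes went both ways. Of 18 homing, residency and naive genes tested in the T gate, 6 were higher in AD and 5 in NB (median -0.01). Those higher in AD included integrins and a factor of tissue-resident T cells, namely ITGAE (9.48 CPM in NB and 42.7 CPM in AD), ITGA1 (5.74 and 54.7 CPM) and RUNX3 (102 and 481 CPM), and the chemokine receptor gene CXCR6 (102 and 329 CPM). Those higher in NB were CXCR4, a receptor for the chemokine CXCL12 (801 CPM (772 to 831) and 47.8 CPM (45.1 to 50.7)), CCR7, which guides cells to lymph nodes (63.8 and 4.39 CPM), S1PR1, the egress receptor (27.6 and 1.19 CPM), which was 85.7 and 10.8 CPM in barcodes without PTPRC, LEF1, a factor of naive T cells (30.2 and 5.45 CPM), and CCR4 (17.2 and 4.47 CPM). TCF7, the partner of LEF1, was 110.0 and 139 CPM and passed in neither direction. The residency genes of the list did not all follow ITGAE and ITGA1. CD69 (464 and 369 CPM), PRDM1 (67.5 and 71.4 CPM) and the integrins ITGB7 and ITGA4 passed in neither direction. ZNF683 lay under 10 CPM in both stages.

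Proliferation genes were higher in NB T-gate members. All 25 tested genes of the list were higher in NB, none in AD, with a median log2 ratio of 2.77. MKI67, a nuclear protein of dividing cells, was 259.6 CPM (243 to 277) in NB and 17.2 CPM (15.6 to 19.02) in AD, and TOP2A, the topoisomerase of mitosis, was 249.6 and 10.6 CPM. The leading NB genes included STMN1, a microtubule regulator (645 and 25.1 CPM), SPC24, a kinetochore subunit (200.5 and 2.64 CPM), PCLAF, a PCNA partner (248 and 5.50 CPM), RRM2, a ribonucleotide reductase subunit (109 and 1.24 CPM), and UHRF1, which maintains DNA methylation (118 and 2.98 CPM). A UMI of MKI67 or TOP2A was found in 30.3% (26.0 to 34.8) of NB and 1.64% (1.33 to 1.99) of AD T-gate members.

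Proliferation RNA was also present outside the leukocytes of the NB library. MKI67 had a UMI in 5.63% of NB epithelial-marked barcodes after thinning, beside 12.5% of NB T-gate members, and in 2.74% of AD epithelial-marked barcodes, beside 0.613% of AD T-gate members. Within NB, MKI67 was 259.6 CPM in the T gate, 50.0 CPM in the macrophage gate and 38.9 CPM in the dendritic gate, the highest of these 3 levels being that of the T gate. With all T-gate members carrying MKI67 or TOP2A left out, an alternative chosen after the data were seen, 796 genes passed the rule in NB and 601 in AD, and HMGB2, a chromatin protein, no longer did, at a log2 ratio of -0.21 against 1.44.

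Most regulatory and checkpoint genes tested, costimulatory receptors included, were higher in NB T-gate members. Of the list 7 of 11 tested were higher in NB, 1 was higher in AD and 3 passed in neither direction (median 1.61). TNFRSF18, the costimulatory receptor GITR, was 336 CPM (317 to 356) in NB and 28.6 CPM (26.5 to 30.9) in AD, TNFRSF4, the receptor OX40, was 167 and 23.1 CPM, and CTLA4, an inhibitory receptor, was 108 and 22.8 CPM. CTLA4 also had a UMI in 25.2% of NB macrophage-gate members, beside 21.6% of NB T-gate members, and after thinning in 4.82% and 7.97%. IL2RA, the interleukin 2 receptor alpha chain, was 128 and 33.8 CPM. FOXP3, the factor of regulatory T cells, had a UMI in 9 NB and 5 AD T-gate members and lay under 10 CPM in both, and TIGIT, another inhibitory receptor, was higher in AD (4.59 and 18.7 CPM).

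Type 3 lymphocyte genes were higher in NB for 3 of 8 tested and in AD for 1 (median 0.66). IL17F was 159.7 CPM (147 to 174) in NB and 9.29 CPM (8.10 to 10.6) in AD, IL22, a cytokine that acts on epithelium, was 87.6 CPM (78.0 to 98.0) and 14.1 CPM (12.6 to 15.7), and IL1R1, the interleukin 1 receptor, was 72.4 and 6.43 CPM. IL17A, the companion cytokine of IL17F, was 40.5 and 19.3 CPM and passed in neither direction. CCL20, the attractant of CCR6-bearing cells, had no UMI in NB and 32.2 CPM in AD, at least 37.4-fold higher against a floor of 3 counts. IL17F had a UMI in 2.53% of NB and 0.243% of AD epithelial-marked barcodes, beside 14.3% and 1.14% of T-gate members.

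Of 7 fetal and early growth genes tested in the T gate, 5 were higher in NB and 0 in AD. The list summed to 197 CPM in NB T-gate members and to 1224 CPM in NB barcodes without PTPRC, which thus held more of it, beside 66.7 and 122 CPM in AD. SOX4, a factor of developing lymphocytes, was 55.4 and 4.69 CPM in T-gate members and 129 (NB) and 59.2 CPM (AD) in barcodes without PTPRC. CD1B, a lipid-presenting molecule of the dendritic list that immature thymocytes also make, was 17.2 CPM in NB with no UMI in AD, at least 135-fold higher against a floor of 3 counts. RGCC, a cell cycle regulator, was 398 and 19.1 CPM. HBG, listed as a gamma globin gene, was 490.3 CPM in NB and 25.7 CPM in AD T-gate members, carried by 61 NB barcodes of which 1 held 12.5% of its UMIs. The globin genes HBA (alpha) and HBB (beta) were 2.58 and 2.01 CPM in the NB T gate, and HBG was 34.9 CPM in the NB macrophage gate with no UMI in the AD one. Members of no gate went the other way, at 739.5 CPM in NB and 1553 CPM in AD, where 12 of 53 held a UMI (22.6%, against 19.4% in NB).

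WC1, a scavenger receptor family that marks many gamma delta T cells of cattle, was low in both stages, at 8.33 CPM in NB and 6.52 CPM in AD for the more abundant of its 2 identifiers with this symbol. Type 1 and type 2 lymphocyte genes were higher in NB for 1 and in AD for 0 of 6 tested in the T gate (median -0.11). The gene called was PTGDR2, a prostaglandin D2 receptor of type 2 cells, at 32.7 and 8.39 CPM. TBX21, the factor of type 1 cells, was 23.8 and 33.4 CPM and GATA3, that of type 2 cells, 116 and 55.9 CPM, and neither passed the rule.

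**Figure D3:**
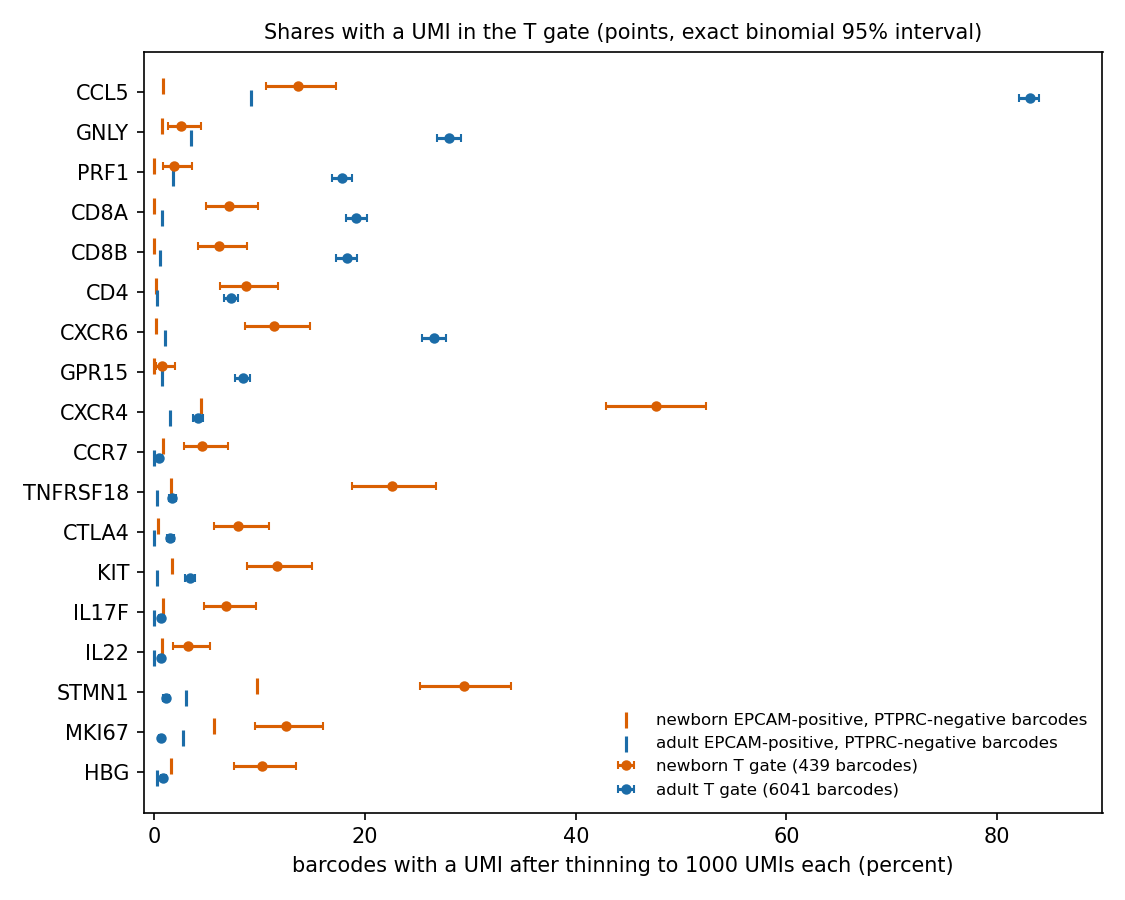
Share of T-gate members with at least 1 UMI of each gene after every barcode was thinned to 1000 UMIs (points with exact binomial 95% intervals), with the same share in epithelial-marked barcodes without PTPRC as ticks. CCL5 stands at 83.1% in AD, and CXCR4 (47.6%), STMN1 (29.4%) and TNFRSF18 (22.6%) are the highest NB shares among the 18 genes plotted.

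Within the macrophage gate, many macrophage genes had the opposite direction to that over all members. The gate held 519 NB and 69 AD barcodes with 6166570 and 313834 UMIs, so AD values there are less precise. Of 7425 genes tested 507 (6.83%) were higher in NB and 461 (6.21%) in AD, 13.0% in all. Scaled by a trimmed mean of M values (TMM), the split was 655 in NB and 329 in AD. Macrophage genes were higher in AD for 14 of 29 and in NB for 1 (median -0.88). The C1Q genes define the gate, and the depth of its members differed (11949 and 3383 UMIs in the median), so their levels depend on the gate. Without them 12 of 26 were higher in AD and 1 in NB (median -0.83). FOLR2, a folate receptor of resident macrophages, was 554 CPM (535 to 572) in NB and 1501 CPM (1368 to 1643) in AD, VSIG4, a complement receptor, was 35.03 and 219.9 CPM, and MRC1, the mannose receptor, was 164 and 436 CPM. LGMN, a lysosomal protease, was 449.7 and 994 CPM. HMOX1 was the exception, at 948 CPM in NB and 376 CPM in AD, and CSF1R (743 and 1048 CPM) and CD163, a hemoglobin scavenger receptor (41.2 and 79.7 CPM), passed in neither direction.

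Class II genes also differed from the sum over members. CD74 was 20422 CPM (20309.7 to 20536) in NB and 53576 CPM (52769 to 54392) in AD macrophage-gate members and was higher in AD, and none of the other 8 tested class II genes passed the rule, among them BOLA-DRA (15964 and 27167 CPM). When the T, macrophage and B gates were given equal weight in each library, CD74 had a log2 ratio of -1.18 and BOLA-DRA of -0.54, against 2.77 and 3.54 over all members. That weighting leaves out the dendritic gate and rests in part on the 11 NB B-gate barcodes. In the T gate both genes were higher in NB, CD74 at 313 and 49.6 CPM and BOLA-DRA at 192 and 21.2 CPM, beside 2990.1 and 2245 CPM in NB and 2330.5 and 1182 CPM in AD barcodes without PTPRC.

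Inflammatory cytokine and chemokine genes were higher in NB macrophage-gate members for 14 of 26 tested and in AD for 3 (median 1.76). IL1B was 419.5 CPM (404 to 436) in NB and 6.37 CPM (0.772 to 23.0) in AD, where it rests on 2 UMIs. CXCL8 was 1566 and 169 CPM, TNF, the tumor necrosis factor gene, was 285 and 19.1 CPM, and IL10, an anti-inflammatory cytokine, was 258 and 38.2 CPM. CXCL2 (399.7 CPM) and IL1A (142 CPM) had no UMI in AD and were at least 41.8-fold and 14.9-fold higher in NB against a floor of 3 counts. CXCL9, a chemokine induced by interferon gamma, was 54.5 and 417 CPM, higher in AD, but its log2 ratio turned from -2.83 to 0.35 when barcodes with UMIs of stromal or endothelial genes were left out.

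Among the other leading NB genes of the macrophage gate were BAG3 (2322 and 31.9 CPM), DNAJB1, a heat shock co-chaperone (2901 and 79.7 CPM), and DNAJA4 (603 and 3.19 CPM). NR4A1, an immediate early nuclear receptor, was 477 and 9.56 CPM, and HES1, a Notch target, was 973 and 9.56 CPM. MAFF, a small Maf factor (154 CPM), and PHLDA1, a stress-induced gene (175 CPM), had no UMI in AD and were at least 16.2-fold and 18.3-fold higher in NB against a floor of 3 counts.

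Several leading AD genes of the macrophage gate rested on very few of its 69 barcodes. The beta-defensin genes DEFB1 (245 CPM), DEFB10 (140.2 CPM) and TAP, tracheal antimicrobial peptide (147 CPM), came from 2 barcodes each, and CD5L, a macrophage scavenger protein, was 102 CPM from 3 barcodes, 1 holding 81.2% of its UMIs. RNASE4, a ribonuclease, was 691 CPM with 67.7% in 1 barcode, and LPL, lipoprotein lipase, was 70.1 CPM from 6 barcodes. Better spread were DEFB4A, another beta-defensin, at 22.9 CPM in NB and 1019.6 CPM in AD from 28 AD barcodes, GPNMB, a glycoprotein of lipid-handling macrophages, at 7.95 and 219.9 CPM from 18, GPR37, a G protein-coupled receptor, at 1.14 and 79.7 CPM from 18, and CELF4, an RNA-binding protein, at 4.38 and 102 CPM from 20.

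Most B cell genes tested were higher in AD in the sum over members. VPREB3, a chaperone of the B cell receptor, was 0.369 CPM (0.177 to 0.678) in NB and 206 CPM (201 to 211) in AD, with 10 UMIs in 4 NB barcodes, and MS4A1, the antigen CD20, was 6.82 and 122 CPM. CR2, the complement receptor of mature B cells, was 0.295 and 24.8 CPM. VPREB3 was 1181 CPM in the 81 AD B-gate members and had no UMI in the 11 NB B-gate members, while AD barcodes without PTPRC held it at 354 CPM, above the level in AD members. Those barcodes include some of the B gate, since PTPRC was detected in 81 of the 134 EPCAM-negative AD barcodes that passed only this gate. Of 14 B cell genes tested, 11 were higher in AD and none in NB (median -1.59), and the list's summed level was 1135 CPM in AD members and 1026 CPM in AD barcodes without PTPRC.

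Plasma cell genes split, with 5 of 13 higher in NB and 3 in AD (median 0.05). JCHAIN was 1699.8 CPM (1684 to 1715) in NB and 4402 CPM (4379 to 4424) in AD members, and MZB1, a chaperone of antibody-secreting cells, was 138 and 63.3 CPM. The log2 ratio of MZB1 turned from 1.07 to -0.097 with the T, macrophage and B gates equally weighted, and barcodes without PTPRC held 156 CPM in NB and 278 CPM in AD. HSP90B1, a chaperone also listed here, was 1005 and 286 CPM and was high in every NB gate, at 466 CPM or more. In AD the summed level of the list was 23339.8 CPM in barcodes without PTPRC, against 6167 CPM in members.

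Most immediate early and heat shock genes were higher in NB in each comparison. The counts were 20 of 26 over members, 20 of 26 in the T gate and 26 of 26 in the macrophage gate, with medians of 2.70, 2.01 and 2.81, and none was higher in AD. HSPA1A, an inducible HSP70, was 15095 CPM (15048 to 15141) in NB and 2913 CPM (2894 to 2932) in AD members, and HSP90AA1, an inducible HSP90, was 11252 and 1188 CPM. FOSB, an immediate early factor, was 909.8 and 134 CPM and ATF3, a stress factor, 658 and 28.1 CPM. In T-gate members JUN passed in neither direction (2746 and 2738 CPM), nor did KLF6 (1418 and 1833 CPM), while in macrophage-gate members JUN was 6796 and 1275 CPM.

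The same list summed to 54928 CPM in NB and 13066 CPM in AD members, and to 22108 and 7759 CPM in the barcodes without PTPRC, so NB was the higher stage in both. BAG3 had a UMI in 54.8% of NB and 6.57% of AD epithelial-marked barcodes, beside 85.4% and 2.74% of members. After thinning these shares were 18.1% and 0.746%, beside 57.2% and 0.519%. The enzyme steps before capture differed between the stages, and their part in these genes was not tested. Interferon-stimulated genes were higher in NB for 11 of 19 over members, 8 of 20 in the T gate and 10 of 23 in the macrophage gate, among them ISG15, a ubiquitin-like antiviral protein (269 and 18.8 CPM over members). The list summed to 3983 CPM in NB barcodes without PTPRC, above the 1774 CPM of NB members.

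**Figure D4:**
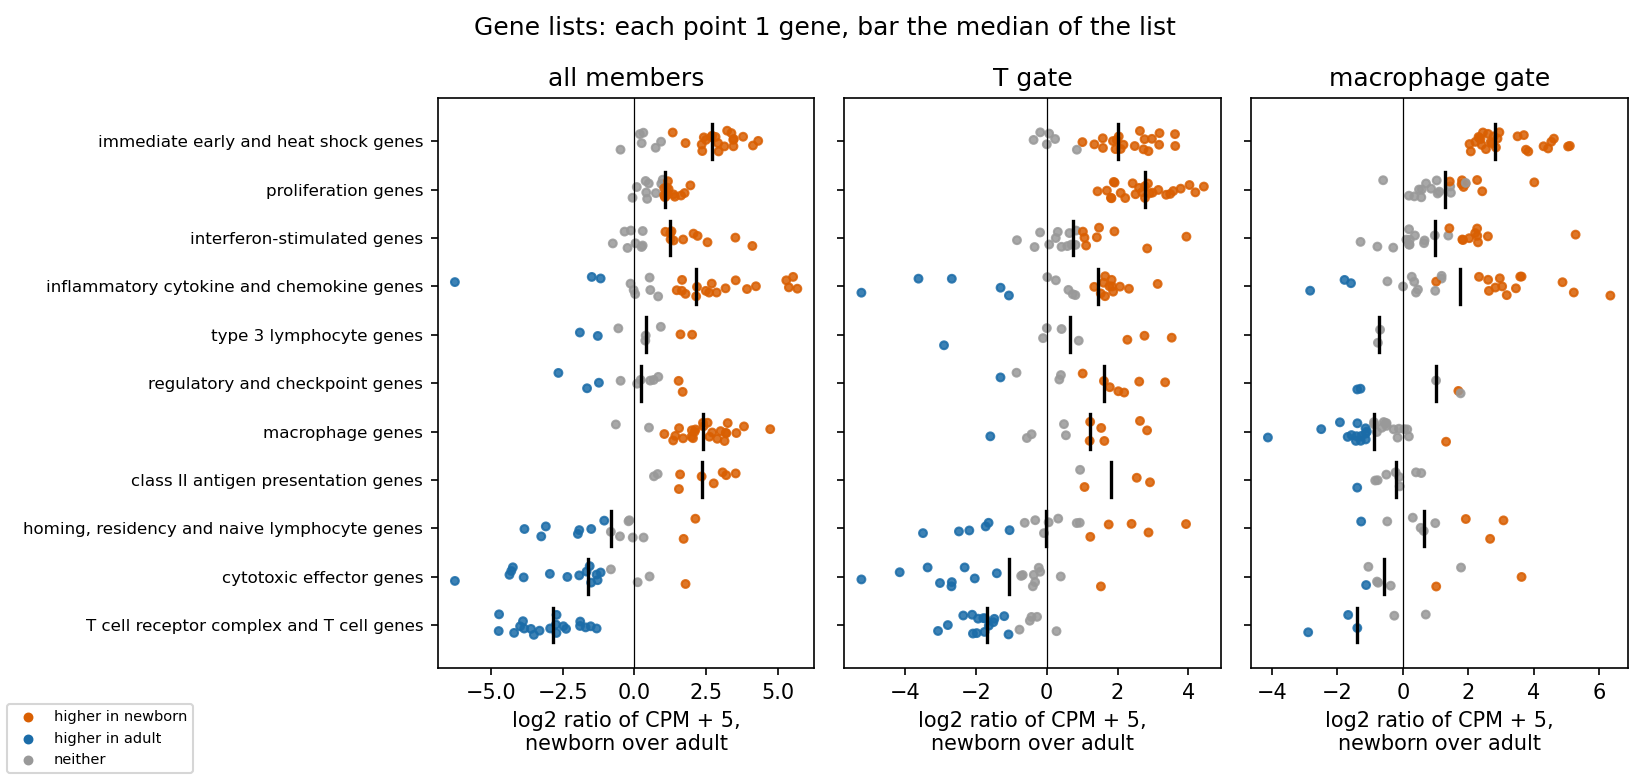
Log2 ratio of CPM + 5, NB over AD, of every tested gene of 11 lists over all members, in the T gate and in the macrophage gate, with the median of each list as a bar. The median of immediate early and heat shock genes lies on the NB side in all 3 panels, and that of macrophage genes changes from the NB side over all members (median 2.40) to the AD side within the macrophage gate (median -0.88).

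RNA of other lineages was present in NB members, whose depth was also greater. A UMI of COL1A2, COL3A1, PECAM1, CDH5 or ACTA2, taken here as markers of stromal and endothelial cells, was found in 69.8% of NB and 2.71% of AD members. Whether leukocytes themselves made any of these, PECAM1 included, was not tested. COL3A1, a fibrillar collagen, was 144 and 2.28 CPM. The fibroblast list summed to 446 CPM in NB members, 1044 CPM in NB T-gate members and 15322 CPM in NB barcodes without PTPRC, and to 7.12 CPM in AD members, with 7 of 7 tested genes higher in NB. The endothelial list summed to 165 and 15.8 CPM in members, the smooth muscle list to 80.9 and 50.7 CPM, the epithelial list to 140.4 and 78.9 CPM and the enteric glial list to 5.24 and 1.17 CPM. With the barcodes holding any of the 5 genes left out, 725 NB and 7315 AD members remained. Of the values of named genes recomputed so over members and within the gates, 474 kept their call or stayed uncalled and 18 lost their call. A further 5 gained a call and 2 called ones changed sign. BAG3, IL1B and CCL5 over members and CXCR4 in the T gate kept their calls.

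The colon is the neighbouring segment and the other part of the large intestine with a library of both stages. By the same rule it held 1573 NB and 7525 AD members, with the T gate at 26.3% and 69.6% and the macrophage gate at 8.14% and 0.997%. The dendritic gate held 1.08% of NB colon members against 17.9% in the NB cecum, 7.14% in the NB jejunum and 15.6% in the NB duodenum. These shares were not recomputed at equal depth for the other tissues, and the median depth of NB members was 5516 UMIs in the colon, 11461 in the cecum, 10899 in the jejunum and 9865.5 in the duodenum. Several gates were passed by 35.2% of NB colon and 19.8% of NB cecum members. CCL5 was 176 CPM in NB and 8345 CPM in AD colon members, 109 and 1801 CPM in the jejunum and 64.5 and 1828 CPM in the duodenum. All AD tissues came from the same cow, so they are not replicates of the stage. The AD cecum and duodenum were dissociated with the lamina propria kit, but the AD jejunum and colon with a multi-tissue kit. Tissue and enzyme kit therefore cannot be told apart where the AD cecum is set beside the AD colon or jejunum.

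Some features of the cecum had other values in the colon. MS4A1 ran the other way, at 245 CPM in NB and 53.2 CPM in AD colon members, where the B gate held 12.4% and 0.571%. IL17F was 3.91 and 4.61 CPM in the colon against 45.8 and 7.55 CPM in the cecum. BAG3 was 219 and 19.3 CPM in colon members, 1016 and 24.4 CPM in the jejunum and 545 and 15.3 CPM in the duodenum, so NB was the higher stage in each and the cecum had the highest NB level of the 4 tissues. GPR15 was 73.7 CPM in AD cecum and 69.9 CPM in AD colon members, beside 5.42 CPM in the jejunum and 2.01 CPM in the duodenum, and it was at most 0.516 CPM in NB members of the 4 tissues.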

How the data were processed

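The authors dissociated the tissues, made 10x Genomics 3' libraries and counted UMIs with Cell Ranger 3.1.0 (per the labels) on a cattle genome. They deposited 1 matrix of raw UMI counts per tissue and stage, for 27270 gene identifiers, of which 7540 had no symbol. The barcode limits on genes and UMIs repeat those the study's methods state. Their mitochondrial limit and doublet removal were applied only as alternatives, the latter with simulated doublets in Scrublet as run in scanpy 1.11.5, which marked 4.50% of NB and 8.03% of AD members.

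Counts were summed over members or gates, divided by the total and multiplied to CPM, in Python 3.11.15 with pandas 2.3.3 and SciPy 1.17.1. Intervals were exact Poisson for sums and Clopper-Pearson for shares. Genes under 10 CPM in both stages were left out of the call counts. The code was tested on simulated counts with known folds. The members, gates and gene lists were chosen with earlier results of these data known, and 34 of 462 listed symbols matched no identifier. Some genes are not reported here. Named genes were those of the lists, the 15 with a symbol and the largest log2 ratio in each direction over members and the 10 within the T and macrophage gates, if at least 2-fold higher than in barcodes without PTPRC of the same library, and the 5 largest over members without that condition. Alternatives were another pseudocount, scaling, member rule, gate limit, fold and weighting.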

Additional observations from a re-analysis of the deposited data

Results flagged for a closer look

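VPREB3, CR2 and MS4A1, genes of the B cell list, had opposite directions in the cecum and the colon, which marked them for a closer look. The log2 ratio of CPM + 5, NB over AD, of members was -5.30 in the cecum and 2.56 in the colon for VPREB3, -2.49 and 2.37 for CR2, and -3.42 and 2.10 for MS4A1. The B gate held 0.458% of NB and 1.08% of AD cecum members, and 12.4% and 0.571% of colon members. VPREB3 was 206 CPM in AD cecum, 459 CPM in NB colon and 285 CPM in AD duodenum members.

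CXCL9 was also opposite, at 1.48 in the cecum and -4.59 in the colon, with 40.2 and 11.2 CPM in NB and AD cecum members and 1.13 and 142 CPM in NB and AD colon members. The cecum direction turned to that of the colon, at -2.42, with the T, macrophage and B gates equally weighted, and it was -2.83 within the cecum macrophage gate, or 0.35 there without barcodes holding UMIs of other lineages. Each stage of each tissue is 1 library, so these differences between tissues were not tested. The AD cecum and AD colon were also dissociated with different enzyme kits.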

How the results depend on the processing

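The stages kept their order in the T, macrophage and dendritic shares of members under every setting tried. The leukocyte share follows from the rule that chose the members and only describes the selection. It was 39.6% (NB) and 79.6% (AD) under a mitochondrial limit of 40%, 26.4% and 62.0% at 2 UMIs of PTPRC, and 48.8% in NB without barcodes holding UMIs of other lineages. Without those, the NB T, macrophage and dendritic gates held 22.2%, 17.8% and 15.2%. With gates at 1 UMI they held 8.95%, 14.7% and 6.87% in NB and 55.8%, 0.599% and 0.0532% in AD. Thinned to 1000 UMIs, the T gate held 7.55% and 75.7%, the dendritic gate 1.58% and 0.0266%, and the AD macrophage gate 1.26%. At 2 UMIs of PTPRC the AD macrophage gate held 0.569%.

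At a 4-fold limit 480 genes were higher in NB and 191 in AD, and with equal weight for the T, macrophage and B gates 729 were higher in NB and 842 in AD, against 1243 and 938. For equal weights the fold alone decided, without counting intervals. The NB B gate of 11 barcodes then carries as much weight as the T gate. Under equal weights these genes changed sign over members, with log2 ratios of -3.06 for RNASE4, -2.42 for CXCL9, -1.41 for FOLR2, -1.41 for C1QA, -1.33 for MRC1, -1.20 for S100A12, -1.18 for CD74, -1.05 for LGMN, -0.75 for CD163, -0.54 for BOLA-DRA, -0.46 for CSF1R, -0.39 for S100A8, -0.32 for IRF8, -0.097 for MZB1, 0.52 for TBX21, 0.87 for IFNG, 1.11 for TCF7 and 2.04 for CTSW. Within the macrophage gate, CD5L had a log2 ratio of 0 and CD247 of 0.077 with gates at 1 UMI, and CXCL9 of 0.35 and S100A12 of 0.012 without barcodes of other lineages, an alternative chosen after seeing the data. In the T gate HMGB2 was -0.21 without barcodes holding MKI67 or TOP2A. Of all other values of named genes, 3367 kept their call or stayed uncalled, 60 lost their call and 40 gained one. Changes of sign were recorded only for genes called in the main comparison. The cause was not tested.

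Scaling by a trimmed mean of M values moved the median log2 ratio of all tested genes from -0.13 to -0.07 over members, from -0.04 to -0.16 in the T gate and from -0.05 to 0.13 in the macrophage gate. It reversed no named gene that was called without it, and sign changes of uncalled genes were not recorded. The calls toward NB and AD went from 1243 and 938 to 1297 and 857 over members, from 1000 and 642 to 859 and 775 in the T gate and from 507 and 461 to 655 and 329 in the macrophage gate. No paired analysis was possible because each stage is 1 library. The AD macrophage gate is limited by depth, since 3 counts there equal 9.56 CPM, against 0.486 CPM in NB.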

Other observations

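Class I antigen presentation genes, which show peptides from inside the cell to CD8 T cells, were higher in AD for 3 of 11 genes tested in the T gate and in NB for 0 (median -0.43). B2M, the light chain of class I molecules, was 7235 CPM (7146 to 7324) in NB and 14839 CPM (14790.2 to 14889) in AD T-gate members. Class I heavy chain transcripts listed as BOLA were 2386 and 5474 CPM. AD was also the higher stage in barcodes without PTPRC, with B2M at 3576 and 7845 CPM and BOLA at 902 and 2609 CPM. In the macrophage gate 0 of 11 tested genes of the list were higher in either stage. PSMB9, a subunit of the immunoproteasome, was 565 and 404 CPM in T-gate members and passed in neither direction.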
